A study of Homo sapiens with 4 samples.

Results

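The WDR5 core complex and the methyltransferases it serves were followed through colorectal cancer cells grown flat or as spheroids. The 10 genes were taken by symbol from the deposited RNA-seq table, which lists 58735 genes. They are the 4 core subunits *WDR5*, *RBBP5*, *ASH2L* and *DPY30* and the 6 catalytic subunits *KMT2A*, *KMT2B*, *KMT2C*, *KMT2D*, *SETD1A* and *SETD1B*. All 10 had a mean level of at least 1 FPKM (fragments counted on a gene, scaled to the gene's length in kilobases and to the size of the library), as did 14429 genes of the table, which serve as the background here.

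Each of the 2 lines, HCT116 and LOVO, both established from human colorectal cancers, was sequenced once as adherent cells and once as spheroids, giving 4 libraries, all labelled wild type. The adherent cells were labelled untreated and grew in serum-containing RPMI-1640. According to the paper, the spheroids formed with oxaliplatin, a platinum drug, and its methods for spheroid culture give serum-free DMEM/F12 with B27, N2, bFGF and EGF in dishes of low attachment. The labels give their treatment as 1 mg/ml without naming the drug, a unit that differs from the one in the paper. Growth form, medium and drug changed together and cannot be told apart. With 1 library per condition, a difference between conditions has no replicate check, and the intervals given below cover counting error only. The libraries were made from bulk cultures, in which fewer cells carrying an mRNA and less of that mRNA per cell cannot be told apart.

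Methylation of lysine 4 of histone H3 (H3K4) marks active promoters and enhancers. In mammals most of it is laid down by 6 related enzymes, each of which is only weakly active alone and works on a shared platform of WDR5, RBBP5, ASH2L and DPY30. SETD1A and SETD1B carry out most of the trimethylation at promoters, KMT2A and KMT2B act at subsets of promoters such as those of developmental genes, and KMT2C and KMT2D place the monomethyl mark at enhancers. WDR5, a WD40-repeat protein, also serves in other complexes and binds MYC, and it has been studied as a drug target in cancer.

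The table held 20429147 reads on genes for adherent HCT116 cells, 15483569 for HCT116 spheroids, 19778829 for adherent LOVO cells and 19108069 for LOVO spheroids. Mitochondrial genes took 6.77% and 11.1% of the reads in adherent cells and spheroids of HCT116, and 3.65% and 3.97% in those of LOVO. The libraries labelled LOVO stood apart from the HCT116 libraries in markers of the colorectal epithelium. The adhesion protein *CDH1* was at 31.1 FPKM in both HCT116 libraries but at 0.117 and 0.00805 FPKM in adherent cells and spheroids labelled LOVO. *EPCAM* was at 85.6 and 79.3 FPKM in HCT116 against 0.930 and 1.50 in LOVO, and the intestinal factor *CDX2* was at 3.84 and 3.12 FPKM against 0 in both LOVO libraries. The keratins *KRT8* and *KRT18* were present in all 4 libraries. The 9 epithelial markers summed to 1754 and 1288 FPKM in HCT116 and to 326.8 and 187 FPKM in LOVO, whereas the 5 fibroblast markers summed to 5.59 and 15.7 FPKM in HCT116 and to 53.2 and 67.7 FPKM in LOVO. The 3 endothelial markers summed to 0.254 and 0.753 FPKM in HCT116 and to 1.13 and 7.84 FPKM in LOVO, and the 5 leukocyte markers stayed between 0.148 and 1.95 FPKM. In LOVO the matrix gene *LUM* was at 31.4 and 50.4 FPKM, while it had 0 and 1 reads in HCT116. *DCN* was at 10.4 and 9.97 FPKM in LOVO against 0 in HCT116, and *PDGFRB* at 1.57 and 1.17 against 0.0825 and 0.175. *COL1A1*, which made up most of the HCT116 fibroblast sums, was at 5.51 and 15.5 FPKM in HCT116 and at 9.89 and 6.10 in LOVO. *COL1A2* had at most 1 read in any library. Most of the endothelial sum of LOVO spheroids was *PECAM1*, at 6.35 FPKM. LOVO below therefore means the libraries labelled LOVO, and the part of these markers in the results was not tested.

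Promoter windows from 250 bases before to 50 bases after an annotated start were held for 7 of the 10 genes in the RefSeq table for GRCh38.p14, 10 windows in all, 4 of them for *WDR5*. *ASH2L*, *DPY30* and *SETD1B* had none. The windows shown are those of *WDR5*, which was lower in the spheroids of both lines, and of *KMT2D* and *SETD1A*, which were higher in both. The first is the *WDR5* window that holds 2 GENCODE transcript starts, at chr9:134135127-134135426 on the plus strand. The second *WDR5* window, shown because it alone of the 4 holds the E-box described below, is at chr9:134136171-134136470 on the plus strand and holds 0 GENCODE starts. That of *KMT2D* is at chr12:49060745-49061044 on the minus strand and that of *SETD1A* at chr16:30957504-30957803 on the plus strand, each with 0 GENCODE starts. Capitals mark every match, on either strand, to the E-box CACGTG bound by MYC and related factors, to the GC box GGGCGG, to the ETS motif CCGGAA and to CCAAT. Overlapping matches are run together.
WDR5, first window: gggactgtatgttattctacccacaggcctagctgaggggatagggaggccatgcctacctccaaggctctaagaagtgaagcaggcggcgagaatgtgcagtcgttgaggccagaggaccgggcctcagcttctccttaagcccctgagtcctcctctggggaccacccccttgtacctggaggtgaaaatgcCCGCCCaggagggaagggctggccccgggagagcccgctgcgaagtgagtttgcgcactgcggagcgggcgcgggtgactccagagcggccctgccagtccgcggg
WDR5, second window: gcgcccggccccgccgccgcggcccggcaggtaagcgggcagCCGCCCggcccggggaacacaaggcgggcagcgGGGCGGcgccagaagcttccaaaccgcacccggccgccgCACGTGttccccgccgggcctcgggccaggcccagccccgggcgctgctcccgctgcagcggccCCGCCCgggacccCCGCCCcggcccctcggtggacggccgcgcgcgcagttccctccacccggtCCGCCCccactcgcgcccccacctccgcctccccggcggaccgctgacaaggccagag
KMT2D: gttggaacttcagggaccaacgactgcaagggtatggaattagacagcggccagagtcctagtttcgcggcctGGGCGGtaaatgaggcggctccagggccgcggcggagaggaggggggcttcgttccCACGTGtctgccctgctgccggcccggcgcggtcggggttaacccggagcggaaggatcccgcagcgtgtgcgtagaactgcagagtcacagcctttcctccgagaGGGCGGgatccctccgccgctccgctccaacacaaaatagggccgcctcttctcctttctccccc
SETD1A: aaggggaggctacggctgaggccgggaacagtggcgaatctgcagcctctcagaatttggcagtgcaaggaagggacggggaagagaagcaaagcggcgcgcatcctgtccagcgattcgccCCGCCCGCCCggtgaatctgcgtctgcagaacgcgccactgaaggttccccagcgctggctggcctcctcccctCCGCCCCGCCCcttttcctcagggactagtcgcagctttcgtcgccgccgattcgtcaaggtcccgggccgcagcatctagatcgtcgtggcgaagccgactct
The E-box was in the second *WDR5* window and in that of *KMT2D*, and in 7.26% of the 35116 windows of this length in the table. The first *WDR5* window held 1 GC box, the second 5, that of *KMT2D* 2 and that of *SETD1A* 4. A GC box was found in 45.0% of all windows, the ETS motif in 17.3% and CCAAT in 34.6%. None of the windows shown held the ETS motif or CCAAT, but a *WDR5* window that is not shown, at chr9:134134949-134135248 with 0 GENCODE starts, held 1 of each, and that of *KMT2A* held 1 ETS motif. The CpG count was 16 and 45 in the *WDR5* windows, 27 for *KMT2D* and 30 for *SETD1A*, against a median of 14 over all windows. The *WDR5* windows that hold GENCODE starts had no E-box, and a match describes letters in these windows only.

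*WDR5* was the most abundant of the 10 mRNAs per length in 3 of the 4 libraries, between 15.5 and 35.8 FPKM. In LOVO spheroids *SETD1A*, at 21.2 FPKM, stood above *WDR5*, at 19.5 FPKM, but their 95% exact Poisson intervals overlapped, as did those of *WDR5* and the next gene, *RBBP5*, in HCT116 spheroids. Among the background genes of a library, *WDR5* ranked between percentiles 81.5 and 89.8. At the other end of the order, *SETD1B* was the lowest of the 10 genes in both HCT116 libraries, at 2.96 and 2.38 FPKM, while *KMT2A* was lowest in adherent LOVO cells, where its interval overlapped that of *KMT2B*, and *ASH2L* in LOVO spheroids. The levels rested on 332 to 6713 reads per gene and library. The length used for a gene was that of all its annotated exons together, for *KMT2A* 31305 bases over 24 transcripts. Exons that these cells do not use would lower a level, so the order of the genes also depends on the annotation. The part of this in the order was not tested. *SETD1B* varied most across the libraries, by 5.30-fold from the lowest to the highest, and *KMT2A* least, by 1.21-fold.

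**Figure D1:**
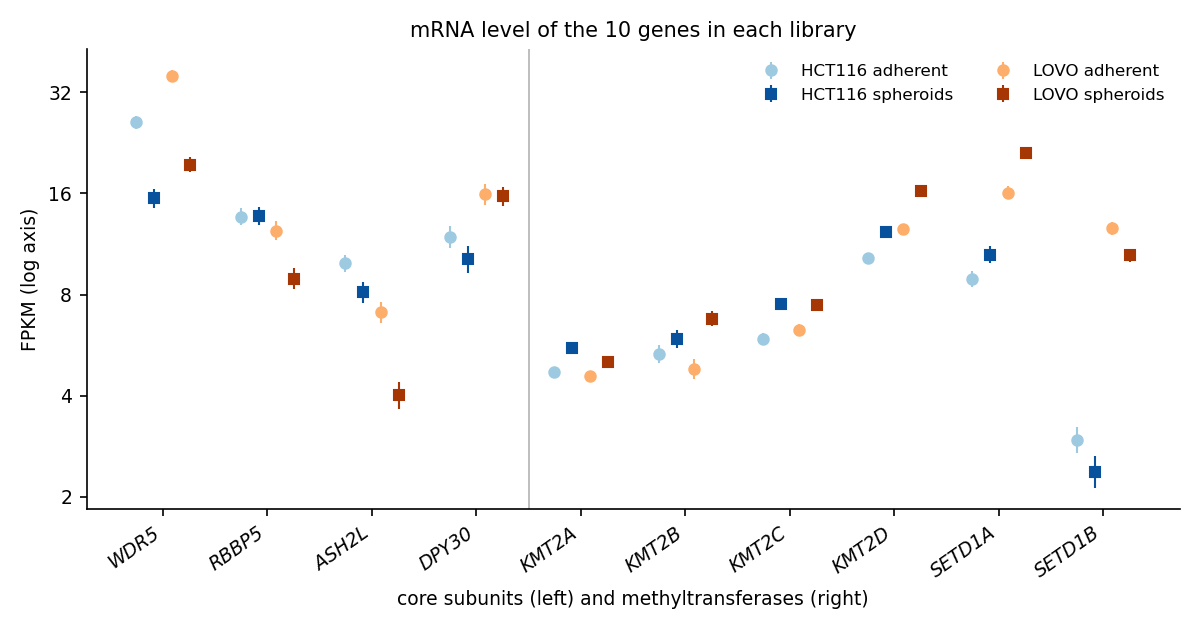
Level of each of the 10 genes in FPKM (log axis) in the 4 libraries, with circles for adherent cells, squares for spheroids, blue for HCT116 and orange for LOVO. Bars are 95% exact Poisson intervals of the reads and cover counting error only. *WDR5* lay lower in spheroids than in adherent cells of both lines, and *SETD1B* was at 2.38 to 2.96 FPKM in HCT116 against 10.5 to 12.6 FPKM in LOVO.

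*WDR5* (ENSG00000196363, plus strand of chromosome 9 from 134135365 to 134159968 in GRCh38) had the largest difference between spheroids and adherent cells of the 10 genes in each line, except that with FPKM rescaled to TPM, which makes every library sum to the same total, *KMT2B*, at 0.67 on the log2 scale, matched its -0.66 in size in LOVO. Its level was 26.0 FPKM in adherent HCT116 cells and 15.5 FPKM in HCT116 spheroids, from 1925 and 943 reads, and 35.8 and 19.5 FPKM in LOVO, from 2328 and 1424 reads. Both spheroid libraries were below both adherent libraries, but how many background genes showed that order was not counted. The spheroid level was 0.594 times the adherent level in HCT116 and 0.545 times in LOVO. As log2 ratios of FPKM these are -0.75, with counting limits (95%, exact Clopper-Pearson) of -0.86 and -0.64, and -0.88, with limits of -0.97 and -0.78. All fold changes below are differences of log2(FPKM + 1) between spheroids and adherent cells, which for *WDR5* were -0.71 and -0.84. They stood at percentile 6.92 of the background genes in HCT116 and at percentile 11.7 in LOVO, so that many other genes were lower by as much. Over 6 settings of scaling and pseudocount the lowest and highest fold changes of *WDR5* were -0.75 and -0.68 for HCT116, and -0.87 and -0.66 for LOVO. Of its 3629 exonic bases, 408 overlap BX649632.1 on the opposite strand, a gene that had at most 15 reads in any library.

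*RBBP5* (ENSG00000117222, minus strand of chromosome 1 from 205086142 to 205122015), a WD40 protein that with ASH2L activates the catalytic domain, showed no detectable difference in HCT116 and was lower in LOVO spheroids. It was at 13.7 FPKM in adherent and spheroid HCT116 cells, and at 12.4 and 8.93 FPKM in LOVO. The log2 ratio in HCT116 was 0.00, with a counting interval from -0.12 to 0.12, and in LOVO -0.48, from -0.61 to -0.34. The HCT116 interval held 0 and the LOVO interval did not.

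*ASH2L* (ENSG00000129691, plus strand of chromosome 8 from 38105242 to 38144076), which binds RBBP5 and the DPY30 dimer, was lower in the spheroids of both lines. It was at 9.91 and 8.13 FPKM in adherent cells and spheroids of HCT116 and at 7.10 and 4.01 FPKM in LOVO. On the log2(FPKM + 1) scale the difference was -0.26 in HCT116 and -0.69 in LOVO, where it was the core subunit nearest to *WDR5*. In LOVO spheroids *ASH2L* rested on 477 reads.

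*DPY30* (ENSG00000162961, minus strand of chromosome 2 from 31867809 to 32039812), the small subunit that docks on ASH2L, was modestly lower in HCT116 spheroids and differed little in LOVO. It was at 11.9 and 10.2 FPKM in adherent cells and spheroids of HCT116, and at 15.9 and 15.7 FPKM in LOVO. The log2 ratio was -0.22 in HCT116, with a counting interval from -0.40 to -0.05, and -0.02 in LOVO, from -0.16 to 0.12. Under other scalings the LOVO fold change ran from -0.02 to 0.18 and so turned its sign. *DPY30* shares 1385 of its 2745 exonic bases, or 50.5%, with *MEMO1* on the same strand, so that reads there could belong to either gene. *MEMO1* had 42 to 107 reads per library against 470 to 866 for *DPY30*.

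*KMT2A* and *KMT2B*, the MLL1 and MLL2 enzymes that bind the cofactor menin, were modestly higher in the spheroids of both lines. *KMT2A* (ENSG00000118058, chromosome 11 from 118436464 to 118526832, plus strand) was at 4.69 and 5.53 FPKM in adherent cells and spheroids of HCT116 and at 4.57 and 5.06 FPKM in LOVO. *KMT2B* (ENSG00000272333, chromosome 19 from 35718019 to 35738878, plus strand) was at 5.32 and 5.91 FPKM in HCT116 and at 4.80 and 6.78 FPKM in LOVO. Both spheroid libraries lay above both adherent libraries for each gene, an order that was not counted among background genes. The fold changes were 0.20 and 0.12 for *KMT2A* and 0.13 and 0.42 for *KMT2B* in HCT116 and LOVO on the log2(FPKM + 1) scale. *KMT2A* shares 5599 of its 31305 exonic bases with AP001267.5 on the same strand, which had at most 2 reads in any library.

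*KMT2C* and *KMT2D*, the enhancer enzymes MLL3 and MLL4, were likewise higher in the spheroids of both lines. *KMT2C* (ENSG00000055609, chromosome 7 from 152134922 to 152436005, minus strand) was at 5.92 and 7.50 FPKM in adherent cells and spheroids of HCT116 and at 6.27 and 7.46 FPKM in LOVO. *KMT2D* (ENSG00000167548, chromosome 12 from 49018975 to 49059774, minus strand) was at 10.2 and 12.3 FPKM in HCT116 and at 12.6 and 16.3 FPKM in LOVO. For *KMT2C* the spheroids of both lines lay above both adherent libraries, whereas for *KMT2D* adherent LOVO cells were slightly above HCT116 spheroids. The share of background genes ordered as *KMT2C* was not counted. The fold changes on the log2(FPKM + 1) scale were 0.30 and 0.22 for *KMT2C* and 0.24 and 0.35 for *KMT2D*. The level of *KMT2C* carries some uncertainty, since 5.88% of the stretches of 50 bases in its transcripts also occur in transcripts of 10 other genes. That share was larger for *KMT2A*, at 17.45%, and for *DPY30*, at 51.2%. *KMT2D* was between 1.64 and 2.18 times the level of *KMT2C* in every library.

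*SETD1A* and *SETD1B*, the SET1 enzymes, went in opposite directions in each line. *SETD1A* (ENSG00000099381, chromosome 16 from 30957294 to 30984664, plus strand) was at 8.91 and 10.5 FPKM in adherent cells and spheroids of HCT116 and at 16.1 and 21.2 FPKM in LOVO. *SETD1B* (ENSG00000139718, chromosome 12 from 121804180 to 121832584, plus strand) was at 2.96 and 2.38 FPKM in HCT116 and at 12.6 and 10.5 FPKM in LOVO. For *SETD1A* the HCT116 log2 ratio was 0.24 (counting interval 0.12 to 0.36) and the LOVO log2 ratio was 0.40 (0.31 to 0.48). For *SETD1B* they were -0.32 (-0.52 to -0.11) and -0.27 (-0.36 to -0.17). The ratio of *SETD1B* to *SETD1A* was accordingly lower in spheroids, 0.226 against 0.332 in HCT116 and 0.494 against 0.783 in LOVO. Over the 6 settings of scaling and pseudocount, the lowest and highest LOVO fold changes of *SETD1B* were -0.27 and -0.06, the latter with TPM. The transcripts of *SETD1A* and *SETD1B* shared 0 stretches of 50 bases with any other gene.

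**Figure D2:**
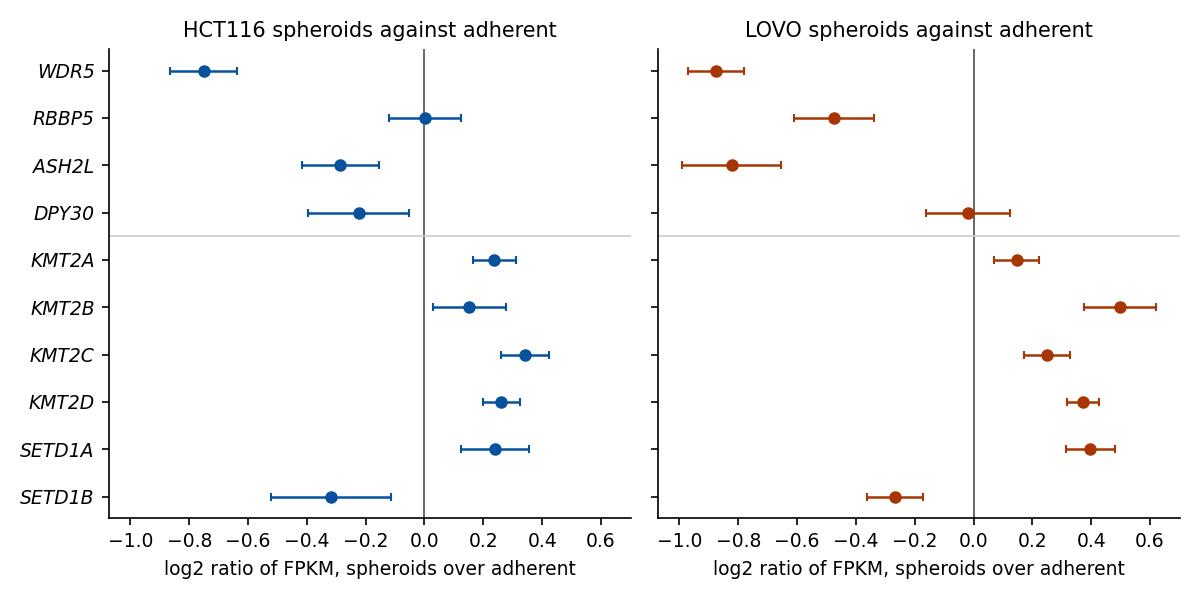
Log2 ratio of FPKM, spheroids over adherent cells, for each gene in HCT116 (left) and LOVO (right), with 95% exact (Clopper-Pearson) counting intervals, which do not cover variation between cultures. Of the core subunits, *WDR5* lay lowest in both lines, while 5 of the 6 methyltransferases lay above 0 and *SETD1B* below it, and the intervals of *RBBP5* in HCT116 and *DPY30* in LOVO crossed 0.

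As groups, the core subunits were lower and the methyltransferases higher in spheroids. On the log2(FPKM + 1) scale, the median fold changes in HCT116 and LOVO were -0.23 and -0.56 for the 4 core subunits, 0.21 and 0.28 for the 6 methyltransferases, and -0.03 and -0.06 for all background genes. The background itself was lower where expression was higher. Once the mean FPKM had to reach 5, as it did for every member except *KMT2A*, its medians were -0.12 in HCT116 and -0.21 in LOVO. The core medians were below these values as well, but by less. Of the methyltransferases, 5 were higher in both lines and 1, *SETD1B*, was lower in both, though by only -0.06 in LOVO with TPM scaling. Of the core subunits, 3 were lower in both lines, although *DPY30* only by -0.02 in LOVO, where the sign turned with scaling. Among all background genes 27.2% were higher in both lines and 35.1% lower in both. Relative to the median of all genes, 5 of the 6 methyltransferases were above and 3 of the 4 core subunits below in each line. By definition the median has as many background genes above it as below it. Scaling moves all genes of a library nearly alike, so these counts, the same under every scaling tried, could hardly have changed.

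The differences were small on the scale of these comparisons. None of the 10 genes passed a log2 fold change of 2 in either direction, a threshold passed by 0.707% of background genes in HCT116 and by 2.75% in LOVO. With a lower mark of 0.5, *WDR5* alone was lower in HCT116 spheroids, 1 of 10 against 13.6% of background genes, and *WDR5* and *ASH2L* were lower in LOVO spheroids, 2 of 10 against 25.0%. No member was higher by over 0.5 in either line, where 10.7% of background genes in HCT116 and 20.0% in LOVO were. In none of these 4 counts was the share of the members above that of the background.

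All 6 methyltransferase mRNAs are long, and gene length itself went with the fold changes. Of the background genes, 3628 had a length of at least 6832 bases, that of *SETD1A*, the shortest methyltransferase gene model. Their median fold change was 0.04 in HCT116, with 55.2% higher in spheroids, against -0.07 and 42.6% for the 10801 shorter genes. In LOVO the order was the other way, with -0.13 and 40.4% for the long genes against -0.02 and 47.2% for the shorter ones. The methyltransferase medians of 0.21 and 0.28 were above that of the long genes in both lines. The part of length in the fold changes was not tested further.

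With the lines standing in for replicates, a limma fit on log2(FPKM + 1) with cell line as a covariate left 1 residual degree of freedom. It called 0 genes at a Benjamini-Hochberg adjusted p under 0.05, or 0.0%, while 1545 genes, or 10.7%, had an unadjusted p under 0.05. *WDR5* was the member with the smallest p, at a log2 fold change of -0.78 ± 0.24 (SE), an unadjusted p of 0.0247 and a limma adjusted p of 0.462. No gene had a smaller adjusted p, but the adjustment gives runs of genes the same value. It therefore does not place *WDR5* ahead of the other genes of the fit. *ASH2L* had a log2 fold change of -0.47 ± 0.26 (SE) and a limma adjusted p of 0.501. The other 8 genes had limma adjusted p-values between 0.610 and 0.858. None of the 10 genes passed this test, which with 1 residual degree of freedom does not show that they were alike.

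Between the lines, *SETD1B* was the member that differed most. Adherent LOVO cells had 4.25 times the level of adherent HCT116 cells and LOVO spheroids 4.40 times that of HCT116 spheroids. The fold changes of LOVO minus HCT116 on the log2(FPKM + 1) scale were 1.78 in adherent cells and 1.76 in spheroids, at percentiles 93.3 and 92.5 of the background genes. *SETD1A* was also higher in LOVO, by 0.79 in adherent cells and 0.94 in spheroids. No member passed 2 in either direction, against 10.9% of background genes in adherent cells and 10.4% in spheroids. The log2 ratio of *SETD1B* without a pseudocount was 2.09 in adherent cells, with a counting interval from 1.94 to 2.23, and 2.14 in spheroids, from 1.97 to 2.31.

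In adherent cells, *SETD1A* and *SETD1B* were the 2 members higher in LOVO by over 0.5, against 32.7% of background genes, and none was lower by as much, against 27.9%. In spheroids, *DPY30* joined them with a fold change of 0.58, so that 3 members were higher, against 31.1% of background genes. *RBBP5*, at -0.56, and *ASH2L*, at -0.86, were the 2 members lower in LOVO spheroids, against 28.3%. *WDR5* was somewhat higher in LOVO than in HCT116 in both forms, by 0.44 and 0.32. *KMT2A* and *KMT2C* differed least between the lines, with fold changes between -0.11 and 0.07 whose signs turned under other scalings. The LOVO libraries also differed from HCT116 in *CDH1*, *EPCAM* and *CDX2*, which were at 1.50 FPKM or less in LOVO, while *KRT8* and *KRT18* were present in both lines, and the part of this difference in these values was not tested.

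Within a library, the ratio of *WDR5* to its core partners was lower in spheroids in each line. *WDR5* was at 1.91 times the level of *RBBP5* in adherent HCT116 cells and 1.13 times in HCT116 spheroids, and at 2.88 and 2.19 times in LOVO. Against *DPY30*, the ratio was 2.19 and 1.52 in HCT116 and 2.25 and 1.24 in LOVO. Against *ASH2L*, it was 2.63 and 1.90 in HCT116 but 5.04 and 4.86 in LOVO, where both genes were lower in spheroids. These ratios do not depend on how libraries were scaled to each other, but their size depends on the gene lengths used. The 4 core subunits summed to 61.5 FPKM in adherent cells and 47.5 FPKM in spheroids of HCT116, and to 71.2 and 48.1 FPKM in LOVO. The 6 methyltransferases summed to 38.1 and 44.1 FPKM in HCT116 and to 56.9 and 67.2 FPKM in LOVO, higher in spheroids where the core was lower. The summed methyltransferase level was 1.46 times that of *WDR5* in adherent HCT116 cells and 2.85 times in HCT116 spheroids, and 1.59 and 3.45 times in LOVO.

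The make-up of the methyltransferase mRNA differed more between the lines than between growth forms. *SETD1B* made up 7.79% and 5.39% of the summed FPKM in adherent cells and spheroids of HCT116, against 22.1% and 15.6% in LOVO. *SETD1A* made up 23.4% and 23.9% in HCT116 and 28.3% and 31.5% in LOVO. *KMT2D* stayed between 22.1% and 27.8% in all 4 libraries. *KMT2A* contributed 12.3% and 12.5% in HCT116 and 8.03% and 7.52% in LOVO. The size of each share depends on the gene lengths used as well.

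**Figure D3:**
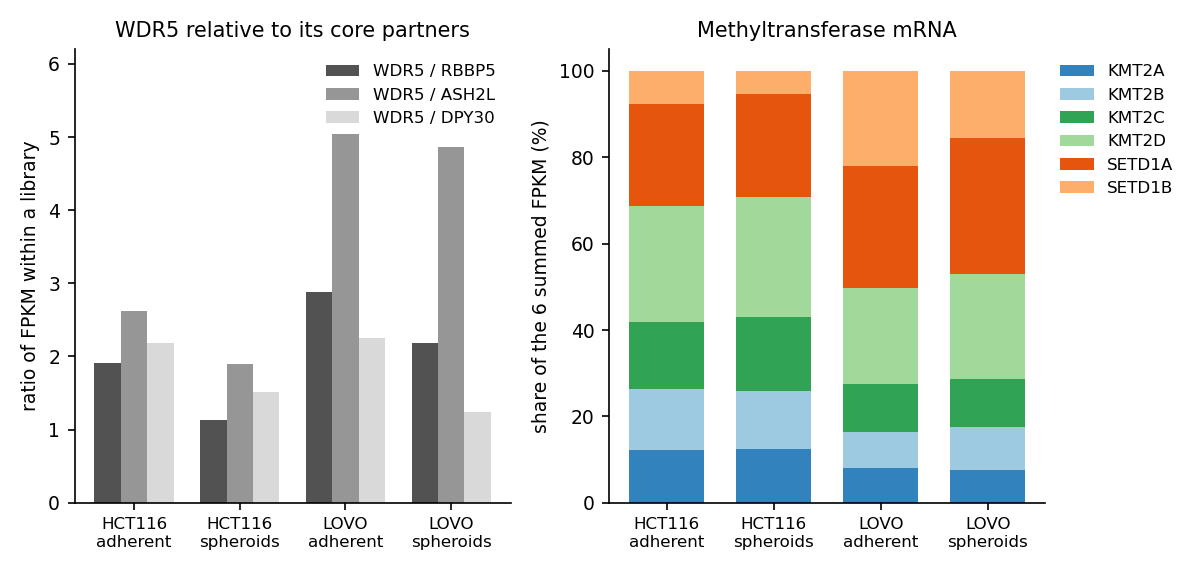
Left, ratio of *WDR5* to *RBBP5*, *ASH2L* and *DPY30* in FPKM within each of the 4 libraries. Right, share of each methyltransferase in their summed FPKM (%). Each ratio of *WDR5* to a partner was lower in spheroids than in adherent cells of the same line, though that to *ASH2L* in LOVO only from 5.04 to 4.86. The share of *SETD1B* was 5.39% to 7.79% in HCT116 and 15.6% to 22.1% in LOVO.

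The profiles over the 4 libraries were compared by the root mean square distance of the log2(FPKM + 1) values, each gene centred on its own mean. The closest members were *KMT2A* and *KMT2C*, at a distance of 0.0712, followed by *KMT2B* and *KMT2C*, at 0.0940, and the farthest were *ASH2L* and *SETD1B*, at 1.22. The profile nearest to *WDR5* among the members was that of *DPY30*, at 0.347. Among 11685 protein-coding background genes, 50 lay within 0.1 of *WDR5*. The nearest 5 were *MRPL3*, a protein of the mitochondrial ribosome, at 0.00673, *EXOSC9*, a subunit of the RNA exosome, at 0.00696, *ALG5*, an enzyme of N-glycan precursor synthesis, at 0.0177, *NT5C*, a nucleotidase, at 0.0211, and *TTC27* at 0.0400. *MRPL3*, for example, was at 50.1 and 29.9 FPKM in adherent cells and spheroids of HCT116 and at 68.2 and 37.9 FPKM in LOVO. With only 4 libraries, a short distance is a description of likeness and not a measure of shared control.

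The genes around the complex were read through 6 lists with 56 genes, of which 54 were background genes. As there is no test within a line, the lists are described by counts beside all background genes, of which 45.8% were higher in HCT116 spheroids and 45.5% in LOVO spheroids. The 13 genes tied to some of the complexes only were mixed, with 6 higher in HCT116 and 8 in LOVO. *WDR82*, which brings SETD1A and SETD1B to RNA polymerase II, was the lowest of them on average, with fold changes of -0.48 and -0.85. The highest was *HCFC2*, related to the host cell factor HCFC1, with 0.14 and 0.76. *MEN1*, which encodes menin, was at 20.8 and 17.4 FPKM in adherent cells and spheroids of HCT116 and at 13.2 and 24.3 FPKM in LOVO, with fold changes of -0.24 and 0.83.

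The other H3K4 methyltransferases and relatives were 7, of which *SMYD1* and *PRDM9* did not reach the background level. Of the other 5, 3 were higher in HCT116 spheroids and all 5 were lower in LOVO spheroids, with medians of 0.13 and -0.82. *SETD7*, which also methylates proteins other than histones, was the lowest on average, with fold changes of -0.48 and -0.82, and *SMYD3* the highest, with 0.16 and -0.11. *SMYD2*, singled out after its values were seen, was at 3.84 and 7.52 FPKM in HCT116 and at 8.70 and 3.75 FPKM in LOVO, giving fold changes of 0.82 and -1.03, respectively.

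Of the 5 H3K4 demethylases, which remove the mark, 3 were higher in HCT116 spheroids and 5 in LOVO spheroids, and none passed 0.5 in either direction. *KDM5B*, a demethylase of trimethylated H3K4, had fold changes of 0.41 and 0.05, and *KDM1B*, a relative of KDM1A that acts on mono- and dimethylated H3K4, had -0.46 and 0.33. Among 14 readers of trimethylated H3K4, 9 were higher in HCT116 spheroids but 3 in LOVO spheroids, with medians of 0.06 and -0.27. *ING4*, a reader in histone acetyltransferase complexes, was the highest on average, with 0.38 and 0.11, and *ING1*, a reader in a deacetylase complex, the lowest, with -0.34 and -1.23.

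WDR5 also works in the NSL and ATAC acetyltransferase complexes, and 13 genes stood for these other settings. Of them, 6 were higher in HCT116 spheroids and 1 in LOVO spheroids, with medians of -0.02 and -0.50, and 6 were lower in both lines. *TADA2A*, an ATAC subunit, was the lowest on average, at -0.76 and -1.20, and *KAT14*, an acetyltransferase of the same complex, the highest, at 0.43 and -0.50. *MYC*, whose protein binds WDR5, was at 107.3 and 57.2 FPKM in adherent cells and spheroids of HCT116 but at 75.0 and 74.6 FPKM in LOVO. Its fold change was -0.89 in HCT116 and -0.01 in LOVO, whereas that of *WDR5* was -0.71 and -0.84. Polycomb repressive complex 2, which places the repressive mark on lysine 27, gave 2 higher and 2 lower genes in each line, among them *EZH2*, its main enzyme, at -0.53 and -0.85, and *EZH1*, its alternative enzyme, at 0.23 and 0.02.

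**Figure D4:**
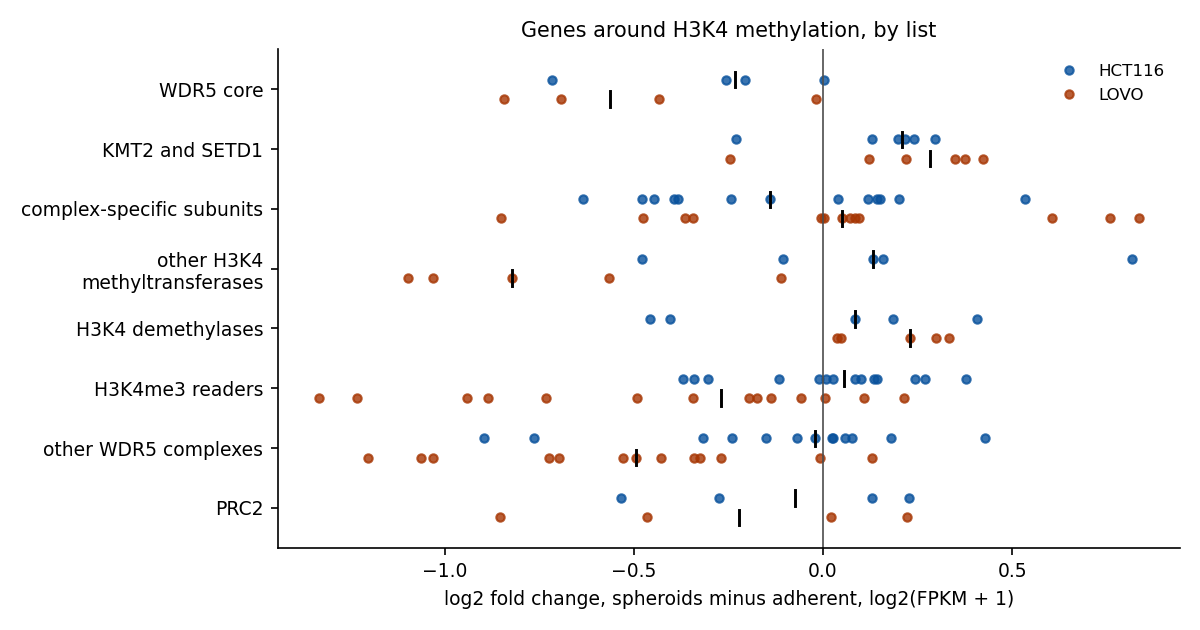
Difference in log2(FPKM + 1), spheroids minus adherent, for the genes of each list with a mean of at least 1 FPKM, in HCT116 (blue) and LOVO (orange), with black bars at the median of each list and line. The KMT2 and SETD1 enzymes had medians of 0.21 and 0.28, the WDR5 core -0.23 and -0.56, and the other WDR5 complexes -0.02 and -0.50, in HCT116 and LOVO.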

How the data were processed

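Total RNA was made into libraries with the SMARTER mRNA-Seq kit, per the labels, and the authors deposited 1 FPKM value per gene and library together with gene lengths. The aligner, the counter and the use of strand are not given in the sources used here. The submitters' processing notes name a mouse genome build, whereas all 58735 identifiers and their coordinates matched GENCODE 29 on human GRCh38. Multiplied by gene length, 100% of the FPKM above 0 were whole multiples of a step (tolerance 0.01 reads), which gave the reads behind each value. The library sizes behind the FPKM were 0.907 to 1.09 times the reads on genes, so the deposited values already carry a scaling between libraries.

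Fold changes were differences of log2(FPKM + 1), which understates the change of low genes, over the 14429 genes whose mean FPKM reached 1. The log2 fold change of 2 follows the methods of the paper, and 0.5 served as a description. Levels were given exact Poisson intervals and ratios Clopper-Pearson intervals, both at 95% and for counting error only. The paper names edgeR, but FPKM are not counts, so limma 3.58.1 (R 4.3.3) was run with trend and Benjamini-Hochberg adjustment over all background genes, after a test on simulated data. Python 3.11.15, numpy 2.4.6, pandas 2.3.3, scipy 1.17.1 and matplotlib 3.10.9 did the rest. Alternatives were pseudocounts of 0.1 and 0.01, TPM, TMM-style scaling, centring on the median, a threshold of 1, other filters on low values, protein-coding genes only and a limma fit without the covariate. The comparison with long genes and the reading of genes that share exons were added after seeing the data.

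Named genes were the 10 members, the genes of each list with the highest and lowest mean of the fold changes in both lines, *MYC*, *MEN1*, and the 5 protein-coding genes nearest to *WDR5* in profile. The members and lists were chosen with earlier results of these data known. *ZZZ3* was matched by identifier. Promoter windows came from the RefSeq table and were searched for the 4 motifs on both strands.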

Additional observations from a re-analysis of the deposited data

Results flagged for a closer look

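Some genes lay on opposite sides of 0 in the spheroids of the 2 lines, each line with 1 library per condition, and the difference between the lines was not tested for any of them. The difference in log2(FPKM + 1), spheroids minus adherent, was -0.242 in HCT116 and 0.834 in LOVO for *MEN1*. For *SMYD2* it was 0.816 in HCT116 and -1.03 in LOVO. For *KDM1B* it was -0.458 and 0.332, and for *KAT14* 0.429 and -0.495. The counting intervals of these 4 genes lay on 1 side of 0 in each line. *SMYD3* gave 0.158 in HCT116 and -0.112 in LOVO, where its counting interval held 0. *RBBP5*, the member of the WDR5 core in this group, gave 0.0019 in HCT116, where the interval of its log2 ratio from -0.12 to 0.12 held 0, and -0.434 in LOVO.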

How the results depend on the processing

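Of 200 alternative values of the members' fold changes, 173 moved by less than the margin of their counting interval, 25 moved by more and 2 changed sign though the interval left out 0. Where the interval held 0, the sign also turned for *RBBP5* in HCT116 spheroids (-0.03 to 0.03), *DPY30* in LOVO spheroids (-0.02 to 0.18), *KMT2A* between the adherent lines (-0.11 to 0.0068) and *KMT2C* between the spheroids (-0.05 to 0.22). The count of background genes past a log2 fold change of 2 was 102 for HCT116 spheroids, 397 for LOVO spheroids, 1566 between the adherent lines and 1498 between the spheroids. In that order it was 312, 1022, 2906 and 2651 with a pseudocount of 0.1, and 458, 1269, 3064 and 2800 with 0.01. It was 209, 848, 2545 and 2468 with TPM, and 796, 2369, 4874 and 4716 at a threshold of 1. With a mean FPKM of at least 5 it was 252 for LOVO spheroids, 917 between the adherent lines and 846 between the spheroids. Between the lines 1 member, *SETD1B*, passed the threshold in adherent cells and 1 in spheroids with each smaller pseudocount, with TPM and at a threshold of 1, against 0 in the main values.

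TPM moved the median of all genes from -0.06 to 0.10 in LOVO spheroids and from 0.04 to 0.26 between the spheroids, and the share of higher genes among those past 0.5 from 44.4% to 60.7% and from 52.4% to 62.7%. The share higher among those past 2 went from 28.4% to 38.3% in HCT116 spheroids and from 65.7% to 77.9% in LOVO spheroids. With TPM, the LOVO spheroid medians were -0.42 for the core and 0.50 for the methyltransferases. There 3 members were higher by over 0.5, as were 4401 of the 14429 background genes. Between the spheroids, TPM gave a core median of 0.093, against -0.12, a methyltransferase median of 0.52, and *KMT2A* at 0.10, against -0.11. In that comparison 1 member was lower and 5 were higher by over 0.5, as were 3537 and 5945 of the 14429 background genes. Centring on the median put *KMT2C* at -0.0022 between the adherent lines, against 0.07. With this centring 1 member was lower by over 0.5, as were 4392 of the 14429 background genes. The limma fit called 0 genes at an adjusted p under 0.05 in each of 8 settings. An unadjusted limma p under 0.05 was reached by 1545 of 14429 genes in the main fit. Without the covariate 163 of 14429 genes reached it, and without a filter on low values 1906 of 58735. The labels carry no replicate numbers, and the pairing of conditions within a line is that of the cell line covariate, without which the limma unadjusted p of *WDR5* was 0.102, against 0.0247. By counting error alone, the interval of the log2 ratio ran from -0.12 to 0.12 for *RBBP5* in HCT116 and from -0.16 to 0.12 for *DPY30* in LOVO. Both held 0, and neither covers variation between cultures.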
